A study of Homo sapiens with 9 samples.

Results

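The levels of 10 genes of the epithelial-mesenchymal transition (EMT) were followed in HK1, an established human line of nasopharyngeal carcinoma cells: the transcription factors SNAI1, SNAI2, ZEB1, ZEB2 and TWIST1, the intermediate filament gene VIM, the cadherins CDH1 and CDH2, and the splicing regulators ESRP1 and ESRP2. They were chosen by name, with earlier results of these data known, and matched by Ensembl identifier. All 10 of the 10 were found among 59062 gene entries and passed the filter that left 13763 genes for testing (at least 1 FPKM in at least 3 libraries). FPKM is fragments per kilobase of transcript scaled to the library's size, so levels of different genes can be set side by side. The 9 libraries formed 3 groups of 3: HK1 cells with a control siRNA that targets no gene, with E2F1 siRNA, or with E2F3 siRNA, each at 100 nM for 48 h in DMEM with serum. Every library, controls included, came from transfected cells, and none of the labels names untransfected cells, a further siRNA per target or separate cultures, so the p-values reflect the variation among these libraries, which may be technical.

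EMT is the change by which epithelial cells loosen their junctions and take on a motile, fibroblast-like form. SNAI1, SNAI2, ZEB1 and ZEB2 are zinc finger repressors and TWIST1 is a helix-loop-helix factor; they bind E-boxes and are known for silencing CDH1, which encodes E-cadherin, the adhesion receptor of adherens junctions. CDH2 (N-cadherin) and VIM (vimentin) are classical mesenchymal genes, although carcinoma lines in culture often carry vimentin too. ESRP1 and ESRP2 are RNA-binding proteins that select the epithelial exons of genes such as FGFR2 and CD44, and the microRNAs of the miR-200 family hold ZEB1 and ZEB2 down through sites in their 3' UTRs. The files give a value per gene and not per exon or transcript form, so exon choice was not analysed here.

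The sequences through which miR-200 microRNAs meet the ZEB genes are shown because ZEB1 and ZEB2 were the members with the most such sites. The mature forms of the 2 microRNAs of the chromosome 12 cluster (RefSeq, GRCh38.p14), at chr12:6963742-6963764 and chr12:6964155-6964176 on the plus strand, follow 5′ to 3′ with the seed (bases 2 to 8) in capitals. They differ within the seed.
hsa-miR-200c-3p: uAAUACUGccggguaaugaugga
hsa-miR-141-3p: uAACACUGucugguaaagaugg
In the transcript with the longest coding sequence (GENCODE 29, GRCh38), the ZEB1 3' UTR of 2549 bases held 6 matches to the first seed (CAGTATT) and 3 to the second (CAGTGTT), and the ZEB2 3' UTR of 5370 bases held 5 and 4. Of the 11764 tested genes with such a UTR, 16.9% held a match to the first seed and 18.5% to the second, and 5 genes (0.0425%) held 9 or more of both together. SNAI2 held 1 match, ESRP1 held 2, and SNAI1, TWIST1, VIM, CDH1, CDH2 and ESRP2 held 0. The following sites lie in the last exon of each gene (exon 9 of ZEB1, plus strand, and exon 10 of ZEB2, minus strand), with the seed match in capitals.
ZEB1 chr10:31527623-31527649: tttatcttatCAGTATTatcactctta
ZEB1 chr10:31528036-31528062: tcatcagaatCAGTGTTtgtgattgtg
ZEB2 chr2:144388980-144389006: tacaatgcatCAGTATTatgattcctc
ZEB2 chr2:144388660-144388686: gcaccagcttCAGTGTTaagctcaccc
A match is a description of the letters, and microRNAs were not measured in these libraries. The host transcript of the cluster, MIR200CHG, had 2.04, 3.99 and 4.23 FPKM with control siRNA, 4.79, 3.47 and 2.74 with E2F1 siRNA, and 6.04, 3.62 and 6.09 with E2F3 siRNA. Its groups overlapped, and no difference passed the test (limma adjusted p = 0.793, 0.134 and 0.203 for E2F1 siRNA against control, E2F3 siRNA against control and E2F3 siRNA against E2F1 siRNA).

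RefSeq promoter windows (250 bases before to 50 after a start site, GRCh38.p14) were held for 4 members: 7 for ZEB1, 2 for CDH2 and 1 each for ZEB2 and VIM. The E-box CACCTG, read on both strands, was present in 2 of these 11 windows, both of ZEB1, and in 20.6% of all 35116 windows. The E2F-type letters TTTCCCGC and TTTGGCGC, also read on both strands, were in 0 of the 11 windows, against 1.63% and 0.652% of all. The ZEB1 E-box nearest to its start site on the upstream side is given with the match in capitals.
ZEB1 chr10:31318348-31318377: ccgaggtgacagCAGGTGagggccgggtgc

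The depth of the libraries was compared through their smallest values. The steps in the FPKM of short single-exon genes gave depths between 0.858 and 1.22 relative to control replicate 1. Mitochondrial genes made up 14.04 to 17.09% of all FPKM, and no pair of libraries shared more than 0.727% of values. The 17 epithelial markers (keratins, claudins and junction genes among them) summed to 3099 to 3148 FPKM in control, 2199 to 2281 after E2F1 siRNA and 2099 to 2213 after E2F3 siRNA. Of 20 markers of leukocytes, endothelium, fibroblasts and other cell types, 12 stayed under 1 FPKM in every library, including PTPRC, CD3E, CDH5, KDR and DCN; the list summed to 49.8 to 53.8, 44.2 to 49.5 and 46.5 to 49.2 FPKM in the 3 groups, mostly CD68, COL1A1 and ACTA2. LYZ was at 7.49 FPKM in control replicate 3 and at 0.53 to 1.06 in the other libraries. In bulk RNA, fewer cells of a type and less RNA per cell cannot be told apart. Each siRNA lowered its own target: E2F1 was at 19.85, 19.53 and 20.2 FPKM in control and 7.17, 7.95 and 7.33 after E2F1 siRNA, and E2F3 was at 24.74, 27.17 and 24.42 in control and 12.61, 10.52 and 11.02 after E2F3 siRNA.

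Control HK1 cells carried epithelial and mesenchymal members side by side. VIM stood far above the others at 328 ± 9.36 FPKM (SD, n = 3), a level that 98.0% of tested genes did not reach. CDH1 followed at 28.8 ± 0.505 and SNAI2 at 20.2 ± 1.68, then CDH2 at 9.95 ± 0.629, ESRP1 at 7.77 ± 0.388, TWIST1 at 7.39 ± 0.558 and ESRP2 at 6.48 ± 0.455. SNAI1 was at 4.34 ± 0.0854, ZEB1 at 2.27 ± 0.395 and ZEB2 at 1.36 ± 0.118, so SNAI2 had the highest level of the 5 transcription factors and the ZEB genes the lowest. The control values of neighbours in this order did not overlap except for ESRP1 with TWIST1 and TWIST1 with ESRP2. The order of the means was the same after E2F1 siRNA. There the values of CDH1 overlapped those of SNAI2, CDH2 overlapped ESRP1, and ZEB1 overlapped both SNAI1 and ZEB2. After E2F3 siRNA TWIST1, at 8.30 ± 0.940, and ESRP1, at 7.61 ± 0.888, changed places, with overlapping values.

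**Figure D1:**
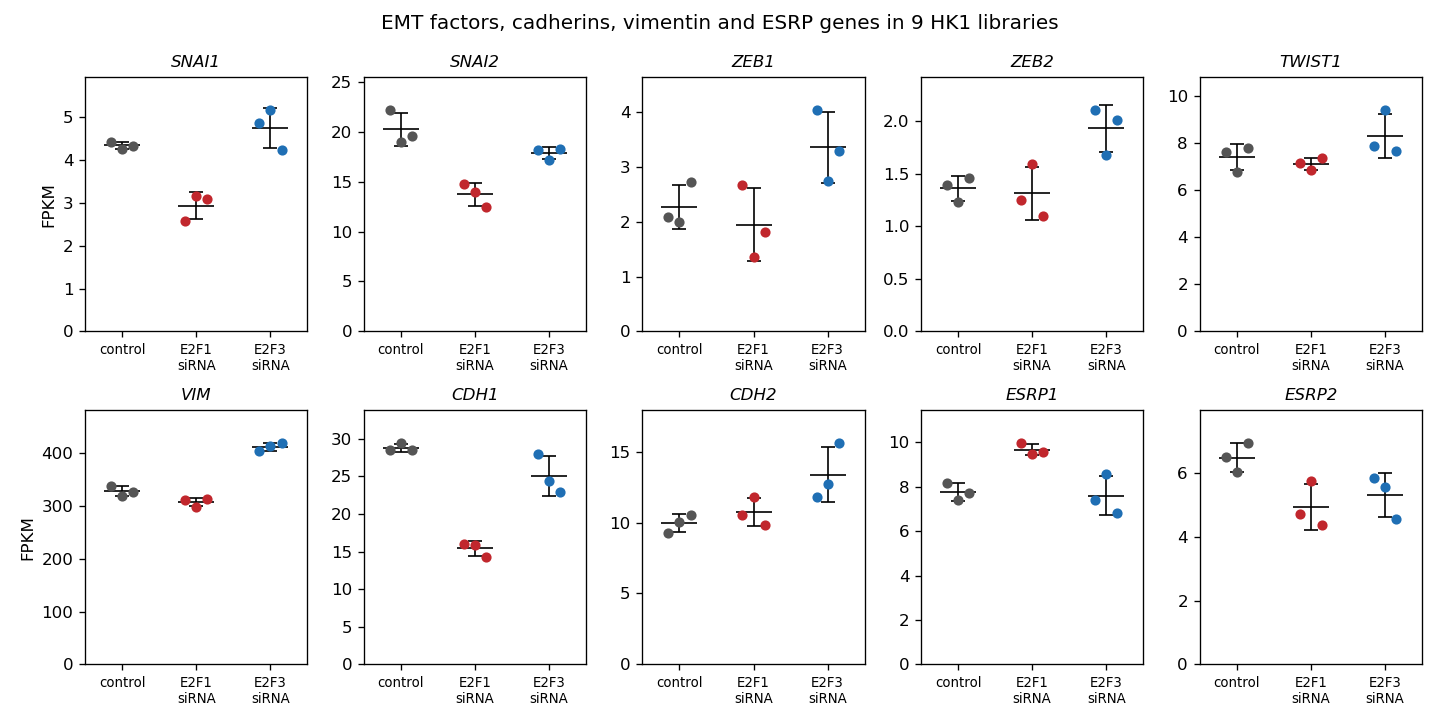
FPKM of the 10 members in each library (points), with the group mean and SD (bars, n = 3 per group), on linear axes that start at 0. CDH1, SNAI1 and SNAI2 lie lowest after E2F1 siRNA, while VIM lies highest after E2F3 siRNA, at 404 to 419 FPKM.

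After E2F1 siRNA, E-cadherin and both SNAIL-family members were lower than in control. CDH1 (chr16:68737225-68835548 in GRCh38) had 28.52, 29.39 and 28.51 FPKM with control siRNA and 16.03, 15.92 and 14.33 with E2F1 siRNA. Every E2F1 siRNA library lay below every control library, and the mean fell by 46.4%. On the log2(FPKM + 1) scale, used for all changes below and known to understate those of low genes, CDH1 fell by 0.86 (SE 0.075, limma adjusted p = 1.88e-05). SNAI2 (Slug) was at 22.13, 18.96 and 19.56 FPKM in control and 14.77, 13.93 and 12.5 after E2F1 siRNA, again without overlap (log2 -0.53, SE 0.077, limma adjusted p = 4.99e-04). SNAI1 (Snail), at a lower level, was at 4.43, 4.26 and 4.33 in control and 2.58, 3.15 and 3.08 after E2F1 siRNA, where all 3 libraries were lower (log2 -0.44, SE 0.095, limma adjusted p = 0.00473). SNAI1 and SNAI2 fell in the same libraries as CDH1, and whether these changes are linked was not tested.

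The 2 splicing regulators moved apart after E2F1 siRNA. ESRP1 was at 8.18, 7.41 and 7.71 FPKM in control and 9.96, 9.5 and 9.57 after E2F1 siRNA, so that its groups did not overlap (log2 0.29, SE 0.083, limma adjusted p = 0.0222). ESRP2 was at 6.5, 6.01 and 6.92 in control and 4.71, 5.75 and 4.36 after E2F1 siRNA, also without overlap (log2 -0.34, SE 0.11, limma adjusted p = 0.0400). Both calls were lost when single libraries were left out. ESRP1 did not pass without control replicate 2 (log2 0.26) or 3 (0.28) or without E2F1 siRNA replicate 1 (0.27) or 3 (0.29), and ESRP2 did not pass without any 1 of the control libraries (log2 -0.33, -0.38 and -0.29 without replicates 1, 2 and 3) or without E2F1 siRNA replicate 1 (-0.31) or 3 (-0.27); over all alternatives the adjusted p ran from 0.0104 to 0.0715 for ESRP1 and from 0.0170 to 0.130 for ESRP2. NFATC3, which overlaps ESRP2 on the opposite strand at 14.94 to 18.56 FPKM, did not pass the test after E2F1 siRNA (log2 0.13, adjusted p = 0.121), and the sources used here do not say whether the counting used strand.

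The remaining members did not pass the test after E2F1 siRNA. VIM was at 338.09, 319.61 and 326.29 FPKM in control and 310.7, 299.22 and 312.77 after E2F1 siRNA, below control in every library but by a small margin (log2 -0.092, 95% interval -0.17 to -0.015, limma adjusted p = 0.0611). With RLE scaling (log2 -0.12) and upper-quartile scaling (log2 -0.12) it passed, and the adjusted p ran from 0.0262 to 0.204 over all alternatives. CDH2 was at 9.27, 10.07 and 10.51 in control and 10.53, 11.8 and 9.83 after E2F1 siRNA, with overlap (log2 0.096, 95% interval -0.14 to 0.33). TWIST1 was at 7.62, 6.75 and 7.79 in control and 7.16, 6.84 and 7.35 after E2F1 siRNA (log2 -0.046, interval -0.24 to 0.15). ZEB1 was at 2.08, 2 and 2.72 in control and 2.67, 1.35 and 1.82 after E2F1 siRNA (log2 -0.17, interval -0.56 to 0.23). ZEB2 was at 1.39, 1.23 and 1.46 in control and 1.25, 1.59 and 1.1 after E2F1 siRNA (log2 -0.033, interval -0.30 to 0.24). The intervals of the ZEB genes, the lowest members, are the widest and leave room for a change in either direction. In all, 4 members fell, 1 rose and 5 were not called, against 37.8% of all tested genes called (17.3% lower and 20.5% higher). For 6 members the groups were apart, against 50.3% of all tested genes, and the median change was -0.13 for the members and 0.028 for all tested genes.

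After E2F3 siRNA, vimentin and N-cadherin were higher than in control. VIM (chr10:17228259-17237593) rose from its control values of 320 to 338 FPKM to 404.29, 413.1 and 418.92, a mean higher by 25.6% (log2 0.33, SE 0.035, limma adjusted p = 6.97e-05). CDH2 (chr18:27950966-28177446) was at 11.83, 12.71 and 15.58 FPKM after E2F3 siRNA, above all control libraries (log2 0.39, SE 0.10, limma adjusted p = 0.0157). The CDH2 call was lost without control replicate 1 (log2 0.34, adjusted p = 0.0566, with a range of 0.0112 to 0.0566 over all alternatives), whereas VIM passed under all 17 alternatives. VIM-AS1, an antisense transcript that overlaps the start of VIM, reached at most 1.09 FPKM in any library.

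CDH1 after E2F3 siRNA was at 27.98, 24.34 and 22.9 FPKM, below the control libraries in each case, but did not pass the test (log2 -0.20, 95% interval -0.37 to -0.029, limma adjusted p = 0.0647). It passed with RLE scaling (log2 -0.24) and without E2F3 siRNA replicate 1 (log2 -0.28), its highest library; the adjusted p ranged from 0.0124 to 0.204. Both ZEB genes had values above every control library and did not pass either. ZEB1 was at 4.03, 2.75 and 3.28 FPKM (log2 0.41, interval 0.014 to 0.81, adjusted p = 0.0957). ZEB2 was at 2.1, 1.68 and 2.01 FPKM (log2 0.31, interval 0.041 to 0.58, adjusted p = 0.0682). ZEB1-AS1, which overlaps the start of ZEB1 on the other strand, was at a level like that of ZEB1 itself. It had 2.29, 2.01 and 1.45 FPKM in control and 2.89, 2.56 and 2.4 after E2F3 siRNA, so it too lay above every control library. With E2F1 siRNA it was at 1.47, 3.45 and 2.7. The sources used here do not say whether the counting used strand. Whether ZEB1-AS1 reads enter the ZEB1 values was not tested. ZEB2-AS1 was listed at 0 in all 9 libraries.

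The other 5 members were not called after E2F3 siRNA. SNAI1 was at 4.86, 5.16 and 4.24 FPKM, overlapping control (log2 0.10, interval -0.11 to 0.32). TWIST1, at 7.85, 9.38 and 7.67, overlapped control as well (log2 0.15, interval -0.051 to 0.34). SNAI2 was at 18.13, 17.16 and 18.28, just under the lowest control library (log2 -0.17, interval -0.34 to 0.00467). ESRP1 was at 7.4, 8.58 and 6.84, on either side of its control values (log2 -0.031, interval -0.22 to 0.16). ESRP2 was at 5.82, 5.55 and 4.54, below control in each library (log2 -0.25, interval -0.50 to 0.00295). Thus 2 members rose, 0 fell and 8 were not called by limma, against 37.6% of all tested genes called (21.1% higher and 16.5% lower). For 7 of the 10 the groups were apart, against 49.5% of all tested genes, and the medians were 0.13 for the members and 0.042 for all. At an unadjusted p under 0.05, 4 members were higher and 1 was lower. The share of all tested genes at that threshold was not counted, so no background stands beside these counts.

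Set directly against each other, the knockdowns differed in most members. These tests use the same libraries as the comparisons with control, so they are no separate evidence for them, but they are the test of the difference itself. With E2F3 siRNA, 7 members were higher than with E2F1 siRNA, 1 was lower and 2 were not called, against 45.5% of all tested genes called (23.5% higher and 22.1% lower). CDH1 was 62.5% higher in the mean (log2 0.66, SE 0.075, limma adjusted p = 7.88e-05). SNAI1 was 61.9% higher (log2 0.55, SE 0.095, adjusted p = 0.00116), and SNAI2 30.02% higher (log2 0.36, SE 0.077, adjusted p = 0.00397). Whether these differences are linked to that of CDH1 was not tested. VIM was 33.99% higher (log2 0.42, SE 0.035, adjusted p = 9.29e-06). ESRP1 was the member that was lower (log2 -0.32, SE 0.083, adjusted p = 0.0115). ESRP2 (log2 0.087, interval -0.17 to 0.34) and TWIST1 (log2 0.19, interval -0.0057 to 0.39) did not pass. Groups did not overlap for 9 of the 10 members, all but ESRP2, against 53.8% of all tested genes.

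The direct differences of ZEB1, ZEB2 and CDH2 did not pass under several alternatives. With no filter on low values none of the 3 passed (adjusted p = 0.0827 for ZEB1, 0.1001 for ZEB2 and 0.111 for CDH2), and with the 6 compared libraries alone ZEB2 (0.0651) and CDH2 (0.0717) did not, nor did CDH2 with RLE scaling (0.0587). ZEB1 (log2 0.58, SE 0.18, limma adjusted p = 0.0236) did not pass without E2F1 siRNA replicate 2 (log2 0.43) or 3 (0.56) or E2F3 siRNA replicate 1 (0.47) or 3 (0.58). ZEB2 (log2 0.34, SE 0.12, adjusted p = 0.0409) did not pass without control replicate 1 or 3, which enter only through the pooled spread (log2 0.34 in both), nor without E2F1 siRNA replicate 1 (0.33) or 3 (0.28) or E2F3 siRNA replicate 1 (0.30) or 3 (0.32). CDH2 (log2 0.29, SE 0.10, adjusted p = 0.0448) did not pass without any 1 of the controls, which leave it at 0.29, nor without E2F1 siRNA replicate 1 (0.28) or 3 (0.23) or E2F3 siRNA replicate 2 (0.32) or 3 (0.18). The direction was the same in each of these. Over all alternatives the adjusted p ran from 0.00690 to 0.0858 for ZEB1, from 0.0253 to 0.128 for ZEB2 and from 0.0245 to 0.151 for CDH2.

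**Figure D2:**
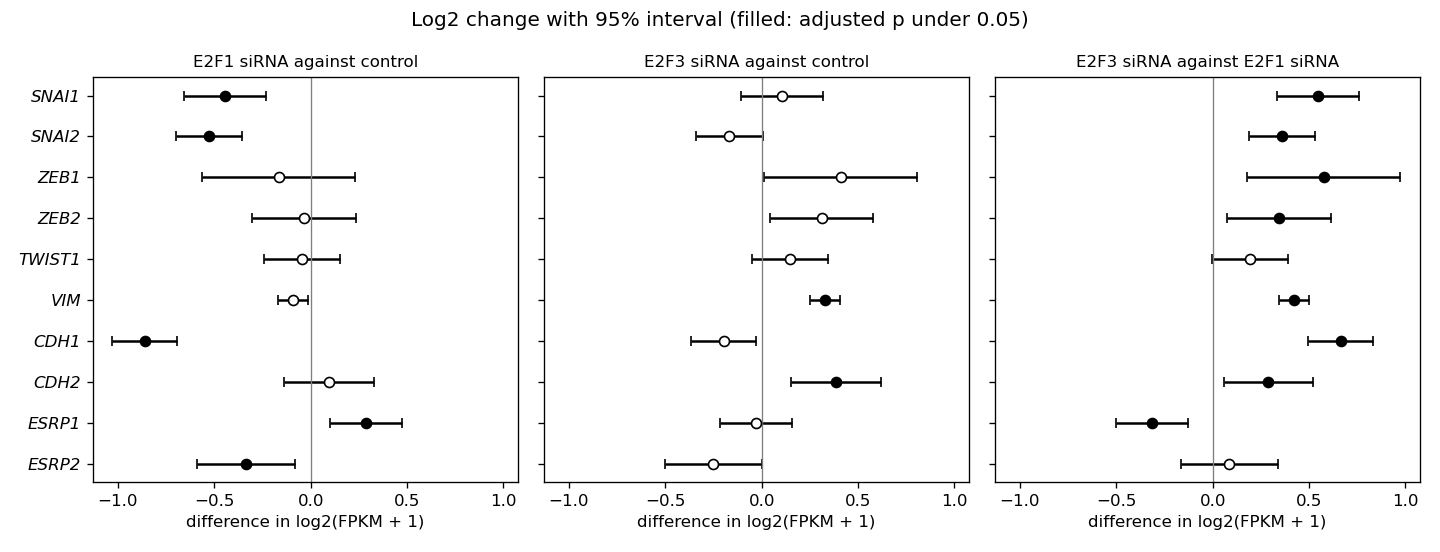
Difference in log2(FPKM + 1) of each member in the 3 comparisons, with 95% intervals from limma; filled points passed the test at an adjusted p under 0.05. E2F1 siRNA against control has 5 filled points, E2F3 siRNA against control has 2, and the direct comparison has 8, of which ESRP1 alone is negative.

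Ratios within a library show how the balance of members shifted. VIM was 11.9, 10.9 and 11.4 times CDH1 in control by FPKM, 19.4, 18.8 and 21.8 times with E2F1 siRNA, and 14.4, 16.97 and 18.3 times after E2F3 siRNA. Both knockdowns lay above all controls. With E2F1 siRNA the mean of CDH1 changed by -46.4% from control, while those of VIM (-6.23%) and CDH2 (7.74%) did not pass the test. After E2F3 siRNA the mean of VIM was 25.6% higher than in control, and that of CDH1, which did not pass the test, changed by -12.96%. CDH2 was at 0.325, 0.343 and 0.369 of CDH1 in control, at 0.657, 0.741 and 0.686 after E2F1 siRNA and at 0.423, 0.522 and 0.680 after E2F3 siRNA. ESRP1 was 1.26, 1.23 and 1.11 times ESRP2 in control, 2.11, 1.65 and 2.19 times after E2F1 siRNA and 1.27, 1.55 and 1.51 times after E2F3 siRNA. Both knockdown groups lay above control, after E2F3 siRNA by a narrow margin (1.27 against 1.26) and with neither gene called. SNAI2 was 4.65 ± 0.297 times SNAI1 in control, 4.74 ± 0.876 times after E2F1 siRNA and 3.79 ± 0.495 times after E2F3 siRNA (SD, n = 3). The SNAI2 to SNAI1 ratio overlapped control after E2F1 siRNA and lay below it after E2F3 siRNA. ZEB1 was 1.66 ± 0.186 times ZEB2 in control, 1.55 ± 0.650 times after E2F1 siRNA and 1.73 ± 0.164 times after E2F3 siRNA, with overlap. These ratios were not tested.

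**Figure D3:**
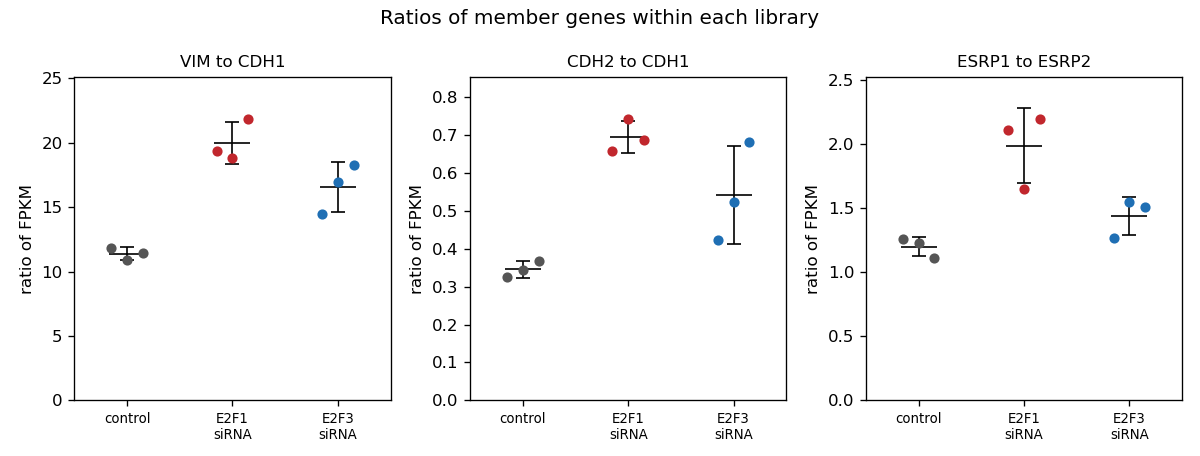
FPKM ratios of VIM to CDH1, CDH2 to CDH1 and ESRP1 to ESRP2 in each library (points), with the group mean and SD (bars, n = 3 per group), on linear axes from 0. For all 3 ratios every knockdown library lies above every control library. This does not hold for the SNAI2 to SNAI1 and ZEB1 to ZEB2 ratios, which are not drawn.

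The genes whose pattern over the 9 libraries was most like that of each called member were taken from 9342 protein-coding genes of at least 5 FPKM. Likeness was the root mean square difference in log2(FPKM + 1) after each gene was centred on its own mean, and is given beside each name. Nearest to CDH1 were SAMD4A (0.0632) and the desmosomal cadherin DSG3 (0.0655), which was at 6.26 ± 0.0700 FPKM in control, 3.26 ± 0.136 after E2F1 siRNA and 5.84 ± 0.339 after E2F3 siRNA. SNAI1 was nearest to ACTR1A (0.0595) and CCDC97 (0.0621), and SNAI2 to WDR66 (0.0501) and WWC3 (0.0556). VIM was nearest to SLC35E2B (0.0432) and UBL3 (0.0441), and CDH2 to THTPA (0.0741) and FAM172A (0.0841). ZEB1 was nearest to DUSP10 (0.111) and TRIM16L (0.137), and ZEB2 to MRTFA (0.0498) and the desmosomal cadherin DSC3 (0.0527). ESRP1 was nearest to XPOT (0.0442) and EXOC3 (0.0475), and ESRP2 to PIP4P1 (0.0694) and ASAP2 (0.0749).

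Among 18 other transcription factors linked to EMT, 12 were tested, and 3 rose and 2 fell in each comparison with control. That is 41.7% called in both, near the 37.8% and 37.6% over all tested genes. TCF3, an E-box factor that like the SNAIL proteins is known to repress CDH1, rose from 46.8 ± 1.88 FPKM in control to 95.9 ± 5.08 with E2F1 siRNA (log2 1.02, SE 0.060, limma adjusted p = 1.64e-06) and to 86.6 ± 5.96 after E2F3 siRNA (log2 0.87, SE 0.060, adjusted p = 4.73e-06). Whether the TCF3 rise bears on CDH1 was not tested. SNAI3, the third SNAIL-family gene, rose after E2F1 siRNA from 1.44 ± 0.0794 to 3.41 ± 0.115 FPKM (log2 0.85), opposite to SNAI1 and SNAI2. HMGA2, a chromatin protein, fell there from 39.0 to 25.6 FPKM (log2 -0.59). SOX4 fell after E2F1 siRNA (log2 -0.18) and rose after E2F3 siRNA (log2 0.42), and FOXC1 fell after E2F3 siRNA (log2 -0.32). SOX4 lost its E2F1 siRNA call without control replicate 1 or 3 or E2F1 siRNA replicate 2 or 3 (log2 -0.21 to -0.16 over all alternatives).

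Corepressors and regulators of the stability of SNAIL and ZEB proteins went both ways. After E2F1 siRNA 7 of 24 rose, 6 fell and 11 were not called, and after E2F3 siRNA 5 rose, 8 fell and 11 were not called. In both cases 54.2% were called, against 37.8% and 37.6% of all tested genes. The histone deacetylase HDAC1 rose after E2F1 and E2F3 siRNA (log2 0.41 and 0.33), as did the corepressor CTBP1 (log2 0.38 and 0.29). The lysyl oxidase relative LOXL2 fell after both (log2 -0.74 and -0.32), and RCOR1 (CoREST) fell after E2F1 siRNA (log2 -0.46). After E2F3 siRNA BTRC, the F-box protein that marks SNAI1 for degradation, fell from 6.70 ± 0.654 to 2.50 ± 0.267 FPKM (log2 -1.14, SE 0.11, limma adjusted p = 3.54e-05). PAK1 (log2 0.36) and FBXO11 (log2 0.34) rose there and LOXL3 fell (log2 -0.45), a call lost without control replicate 1 or 3 or E2F3 siRNA replicate 2 (log2 -0.68 to -0.36 over all alternatives). The LOXL3 call was also lost with no filter and with the 6 compared libraries alone.

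Epithelial markers showed more falls than rises. Of the 17 epithelial markers, 0 rose and 11 fell by limma after E2F1 siRNA, and 1 rose and 13 fell after E2F3 siRNA; the medians were -0.37 and -0.39, against 0.028 and 0.042 for all tested genes. Called were 64.7% and 82.4% of the markers, against 37.8% and 37.6% of all tested genes. The gene lists were chosen with earlier results of these data known, so such shares only describe them. At an unadjusted p under 0.05, 0 were higher and 12 lower after E2F1 siRNA. The claudin CLDN4, at 23.6 FPKM in control, fell to 8.93 with E2F1 siRNA (log2 -1.31) and 8.35 with E2F3 siRNA (log2 -1.39), and the keratins KRT17 (log2 -0.94 and -1.06) and KRT14 (log2 -0.66 and -1.46) fell after both as well. Desmoplakin, DSP, was the one that rose after E2F3 siRNA (log2 0.24). The fall did not extend to the whole list: 6 markers were not called after E2F1 siRNA and 3 after E2F3 siRNA. With E2F1 siRNA the junction genes OCLN (32.62, 30.28 and 33.21 FPKM) and TJP1 (28.78, 33.97 and 29.9) overlapped their control values. The epithelial gene EPCAM, listed with the cadherin and polarity genes instead, was at 171.46, 182.25 and 170.12 FPKM in control. It was at 203.1, 179.02 and 201.69 with E2F1 siRNA and 175.8, 167.03 and 187.81 with E2F3 siRNA, overlapping control in both. Of 15 transcription factors and host genes that guard the epithelial state, 9 were tested; 2 rose and 3 fell after E2F1 siRNA, and 1 rose and 4 fell after E2F3 siRNA (55.6% called in both). At an unadjusted p under 0.05 E2F1 siRNA gave 3 higher and 3 lower, and E2F3 siRNA 1 higher and 4 lower. For the unadjusted counts of both lists, the share of all tested genes was not counted. ELF3 rose after both (log2 0.32 and 0.58) and KLF4 fell after both (log2 -0.54 and -1.16), as did TP63, the basal epithelial factor, from 46.7 FPKM in control to 32.1 and 28.4 (log2 -0.53 and -0.70). KLF5 rose after E2F1 siRNA (log2 0.17) and fell after E2F3 siRNA (log2 -0.45), and EHF fell after both (log2 -0.80 and -0.66). After E2F1 siRNA KLF5 lost its call without control replicate 2 or E2F1 siRNA replicate 1 or 3 (log2 0.14 to 0.21 over all alternatives), and EHF without control replicate 1 or E2F1 siRNA replicate 1 or 2 (log2 -1.18 to -0.61). After E2F3 siRNA EHF lost it without any 1 of the controls or E2F3 siRNA replicate 1 or 2 (log2 -0.94 to -0.51). Both EHF calls were also lost with no filter, and the second with a pseudocount of 0.1.

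Of 26 cadherin, catenin and polarity genes, 20 were tested. After E2F1 siRNA 1 rose, 5 fell and 14 were not called, and after E2F3 siRNA 5 rose, 3 fell and 12 were not called. The shares called, 30% and 40%, lay near or below the 37.8% and 37.6% over all tested genes. Plakoglobin, JUP, a catenin of both adherens junctions and desmosomes, fell after E2F1 siRNA from 162 ± 8.87 to 58.5 ± 2.87 FPKM (log2 -1.46, SE 0.054, limma adjusted p = 1.03e-07). The polarity gene PALS1 also fell there (log2 -0.57) and rose after E2F3 siRNA (log2 0.35). AFDN (afadin) rose after both siRNAs (log2 0.49 and 0.53) and NECTIN3 rose after E2F3 siRNA (log2 0.47). CRB3 and SCRIB fell after E2F3 siRNA (log2 -0.45 and -0.35). CRB3 lost its call without control replicate 1 and SCRIB without control replicate 2 or 3 or any 1 of the E2F3 siRNA libraries (log2 -0.51 to -0.37 and -0.46 to -0.21 over all alternatives). Both calls were also lost with no filter, and that of SCRIB with the 6 compared libraries alone.

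Beside the ESRP genes, 20 of 22 other regulators of EMT exons were tested. After E2F1 siRNA 8 rose, 3 fell and 9 were not called, and after E2F3 siRNA 7 rose, 3 fell and 10 were not called. That is 55% and 50% called, against 37.8% and 37.6% of all tested genes. PTBP1 rose after E2F1 siRNA (log2 0.34) and fell after E2F3 siRNA (log2 -0.25). HNRNPM rose after E2F1 siRNA (log2 0.41), while QKI fell from 81.7 to 56.3 FPKM (log2 -0.53) and MBNL2 from 43.9 to 23.5 FPKM (log2 -0.88). RBFOX2 fell after E2F1 siRNA (log2 -0.27). After E2F3 siRNA RBFOX2 rose from 44.3 to 61.0 FPKM (log2 0.45) and CELF1 from 51.7 to 71.4 FPKM (log2 0.46), while TIA1 and MBNL2 fell (log2 -0.46 and -0.42). Total levels of 20 genes whose exons ESRP proteins are known to regulate went both ways: 4 rose, 5 fell and 11 were not called after E2F1 siRNA, and 5 rose, 4 fell and 11 were not called after E2F3 siRNA. In both 45% were called, near the share over all tested genes. FGFR3 rose after both (log2 1.32 and 0.55) and ARHGEF11 after E2F1 siRNA (log2 0.44). CD46 fell after E2F1 siRNA from 121 to 45.4 FPKM (log2 -1.39). ITGA6 fell after both (log2 -0.92 and -0.19), the second call being lost without control replicate 2 (log2 -0.23 to -0.14 over all alternatives). ARFGAP2 fell after E2F3 siRNA (log2 -0.55). NUMB rose after both (log2 0.26 and 0.24). The first call was lost without control replicate 1 or E2F1 siRNA replicate 1 or 2 and the second without control replicate 1 or E2F3 siRNA replicate 2 or 3 (log2 0.22 to 0.30 and 0.20 to 0.32 over all alternatives). Both NUMB calls were also lost with no filter, and the second with RLE scaling.

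Other mesenchymal markers differed between the siRNAs. Of 27 listed, 20 were tested; 2 rose and 11 fell after E2F1 siRNA, 3 rose and 5 fell after E2F3 siRNA, and in the direct comparison 12 were higher with E2F3 siRNA and 2 lower. Their medians were -0.34, -0.11 and 0.34, and 65%, 40% and 70% were called, against 37.8%, 37.6% and 45.5% of all tested genes. Nestin, NES, an intermediate filament gene like VIM, rose from 2.14 ± 0.215 FPKM in control to 5.08 ± 0.0985 with E2F1 siRNA (log2 0.96) and 7.90 ± 0.181 with E2F3 siRNA (log2 1.51). The receptor tyrosine kinase AXL fell after both, from 33.8 FPKM to 15.7 (log2 -1.06) and 20.8 (log2 -0.68). ACTA2 (smooth muscle actin) fell after E2F1 siRNA (log2 -0.95) while the collagen COL1A1 rose (log2 0.45), and after E2F3 siRNA COL5A1 rose (log2 0.65). S100A4 fell after both (log2 -0.37 and -0.86), the first call being lost without control replicate 1 or 2 or E2F1 siRNA replicate 1 or 3 (log2 -0.43 to -0.31 over all alternatives). That first call was also lost with no filter. Of the 20 markers of other cell types, 6 were tested. ACTA2 and COL1A1 were the 2 called after E2F1 siRNA, that is 33.3%, near the 37.8% of all tested genes. After E2F3 siRNA 0 were called by limma, against 37.6% of all tested genes, and 0 also passed at an unadjusted p under 0.05. The share of all tested genes at that unadjusted threshold was not counted.

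**Figure D4:**
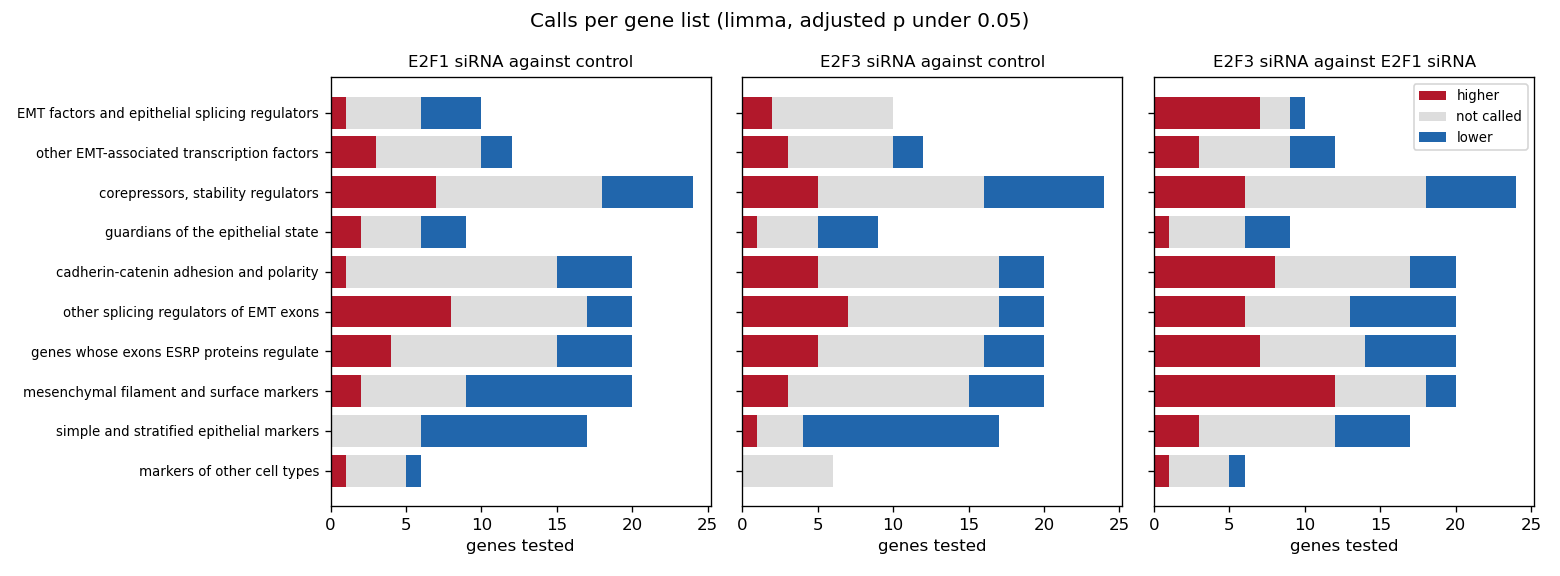
Number of tested genes in each list that were higher (red), not called (grey) or lower (blue) by limma at an adjusted p under 0.05, for the 3 comparisons. The epithelial markers have 11 and 13 genes lower after E2F1 and E2F3 siRNA, and the members have 7 genes higher in the direct comparison.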

How the data were processed

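Per the file headers, the values deposited by the authors are FPKM per gene, given to 2 decimals; Trimmomatic, TopHat, HISAT2, HTSeq, DESeq and build GRCh38 are named in the submitters' processing notes (versions and roles: not given in the sources used here). Each file held 59107 entries with a value, 726 of them assembled loci, and 12 without; 45 copies on the Y pseudoautosomal region were left out. Symbols and coordinates are those of GENCODE 29. Absolute depth was not given. Ensembl genes with at least 1 FPKM in 3 libraries were fitted as log2(FPKM + 1) in limma 3.58.1 (R 4.3.3, trend), with 1 mean per group over 9 libraries, two-sided tests, Benjamini-Hochberg adjustment over 13763 genes and a threshold of 0.05. The fit was tested on simulated data. The members and gene lists were chosen with earlier results of these data known. Named genes were the members, their 2 nearest genes, and up to 2 called genes per list, direction and comparison with control; 1 of these is not reported here. The other comparison with control is given for those called there too, an addition made after their values were seen. Sites and motifs were searched in Python 3.11.15. Alternatives were another pseudocount, filter, scaling, threshold or model, a replicate term, and leaving out each library. Seed matches, and the alternatives for list genes, were added after seeing the data.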

Additional observations from a re-analysis of the deposited data

How the results depend on the processing

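The number of members called moved by over 1.5 times under several settings. After E2F1 siRNA it was 5, and 3 with no filter or at an adjusted p under 0.01. After E2F3 siRNA it was 2, and 1 at an adjusted p under 0.01. In the direct comparison it was 8, and 5 with no filter or a filter of 5 FPKM (which leaves SNAI1, ZEB1 and ZEB2 untested) and 4 at an adjusted p under 0.01. Leaving out 1 library gave 3 to 5, 1 to 3 and 5 to 7 members, and 4331 to 5287, 4237 to 5137 and 5415 to 6164 genes of 5204, 5177 and 6269. At an adjusted p under 0.01, 3242 genes were called after E2F3 siRNA. Directions turned for ZEB2 after E2F1 siRNA (log2 0.034 without E2F1 siRNA replicate 3; -0.12 to 0.034 over the libraries left out) and ESRP1 after E2F3 siRNA (log2 0.00303 without control replicate 1 and 0.034 without E2F3 siRNA replicate 3; -0.11 to 0.034 over the libraries left out), none of them called. Otherwise 449 of the members' values kept direction and call, 45 lost a call and 4 gained one. The 449 include values of members that were not called to begin with and stayed so. They are therefore no measure of how stable the calls were. The cause of these changes was not tested. Same-numbered libraries showed little shared deviation (correlations of -0.105 to 0.112 over 9 pairs, 1 of them over 0.1). The labels do not say whether a replicate number stands for a shared culture or day, and these correlations cannot settle it. With a replicate block the calls of ESRP2 after E2F1 siRNA (adjusted p = 0.0563) and of ZEB2 (0.0727) and CDH2 (0.0518) in the direct comparison were lost, and the genes called were 4930, 4864 and 5976. Of the values of the called list genes, 1154 kept their call and 66 lost it, and 13 of the 459 list counts moved by over 1.5 times. Every list-gene call said above to have been lost was also lost at an adjusted p under 0.01, as was that of CTBP1 after E2F3 siRNA. The balance over all genes depended on the scaling. After E2F1 siRNA 2824 higher and 2380 lower became 2528 and 2602 with RLE and 2436 and 2648 with upper-quartile scaling. After E2F3 siRNA 2910 and 2267 became 2416 and 2651 with RLE, but 3147 and 2145 with upper-quartile scaling, so the 2 scalings went opposite ways there. The low FPKM of ZEB1 and ZEB2 limits what could be seen in them.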
